A study of Mus musculus with 51 samples.

Results

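Parental bias of H3K4me3 in the extra-embryonic ectoderm (ExE) was examined at 5 loci of the mouse genome, those of Smoc1, Sall1, Gm12569, Galnt6 and B130034C11Rik. The loci were taken as fixed GRCm38 intervals, chr12:81000000-81200000 for Smoc1, chr8:89000000-89100000 for Sall1, chr11:51200000-51240000 for Gm12569, chr15:100700000-100740000 for Galnt6 and chr16:87480000-87530000 for B130034C11Rik. All peaks of the 6 allelic peak tables (3 histone marks in 2 tissues) that overlapped an interval were members, which gave 64 of 150793 peaks. Of these, 51 held enough allele-assigned reads to be tested, at least 20 in 1 allele column of a wild-type library, with 20 of 26 at Smoc1, 11 of 16 at Sall1, 4 of 5 at Gm12569, 7 of 8 at Galnt6 and 9 of 9 at B130034C11Rik. The loci were chosen by the allelic ExE H3K4me3 values of their leading peaks, where paternal exceeded maternal reads in all 3 crosses, so those values are given as a description with no test. Gab1, Sfmbt2, Slc38a4, Jade1 and Platr20 were used as reference loci.

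Histone marks were mapped by ultra low-input native ChIP-seq in dissected epiblast and ExE of hybrid embryos on embryonic day 6.5 (E6.5). Wild-type embryos came from reciprocal matings of the inbred strains C57BL6/Babr (B6) and CAST/Ei (CAST), written with the mother first as B6/CAST and CAST/B6. The matDKO/CAST embryos came from CAST males and females of a mixed B6/129 background that carried floxed Dnmt3a and Dnmt3b, the genes of the de novo DNA methyltransferases, and the oocyte-expressed Zp3-cre. Such oocytes set no DNA methylation, while the embryos, with the genotype Dnmt3a -/+, Dnmt3b -/+, kept a paternal copy of each gene and could methylate DNA after fertilisation. Each group of a cross, tissue and mark held 2 libraries. Each library came from a pool of 4 epiblasts or 8 ExE, and each chromatin sample was shared out among the antibodies. In some epiblast groups the marks carry different replicate numbers, so there they share only part of their pools. The p-values of total signal measure the spread between those pools. The main allelic test took the maternal and paternal reads of a pool as separate samples. Only a fit with the library as a block, given beside it, measures the spread of the parental ratio between pools. For matDKO/CAST the authors first left out the variants shared by 129 and CAST. They then added reads that matched 129 alleles to the maternal set, a step that can only add maternal reads. The matDKO/CAST ratios therefore rest on a different set of variants from those of B6/CAST. The autosomal paternal share of assigned reads was 44.2 to 48.9% in the matDKO/CAST libraries and 47.4 to 51.2% in the wild type.

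Assigned reads in peaks (M, 1e6 reads) ranged from 2.70 to 6.82 M per ExE library and 1.12 to 6.06 M per epiblast library for H3K4me3. H3K27me3 had 2.11 to 6.58 M in ExE and 0.271 to 1.99 M in epiblast, and H3K36me3 had 0.603 to 2.11 M in ExE and 0.289 to 1.71 M in epiblast. The dissected tissues were checked against marker genes. In the wild type, H3K4me3 at the start site was higher in ExE for 4 of 6 tested ExE markers and lower for 5 of 8 epiblast markers, Pou5f1 and Nanog among them. Of 8 markers of visceral endoderm, the layer that surrounds both tissues, 5 were higher in ExE and 1 was lower, where of all 20151 genes 7.38% were higher and 16.5% lower.

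Most imprinted genes carry DNA methylation from the oocyte or sperm on one allele. In non-canonical imprinting the maternal allele instead arrives marked by H3K27me3, the repressive mark of Polycomb complexes, and in extra-embryonic tissues the paternal allele is used, often from the long terminal repeat of an endogenous retrovirus acting as a promoter. H3K4me3 marks active promoters, and H3K36me3 accumulates over the bodies of transcribed genes. Smoc1 encodes a secreted calcium-binding protein of basement membranes, and Sall1 a zinc finger transcription factor needed for kidney and limb development. Galnt6 encodes a Golgi enzyme that adds the first sugar of mucin-type O-glycans, whereas Gm12569 is a predicted protein-coding gene and B130034C11Rik is annotated as a processed transcript.

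The leading peaks differed in where they lay. The Smoc1 peak, chr12:81017000-81022000, was upstream of the annotated Smoc1 start (plus strand), with a gap of 4808 bp between them. The Sall1 peak, chr8:89033500-89056500, covered the Sall1 start site on the minus strand at position 89044162 and was the widest at 23000 bp. At chr11:51218500-51222500 the Gm12569 peak covered the start sites of Gm12569 (plus strand) and of the non-coding RNA Platr20 (minus strand), which in RefSeq lie 153 bp apart. The Galnt6 peak, chr15:100719000-100721500, was inside Galnt6 (minus strand), away from the annotated start at 100729376 and over a RefSeq start at 100720477. The B130034C11Rik peak, chr16:87506500-87508500, lay past the end of that gene, which runs on the plus strand from 87495999 to 87504033. The leading peaks of Smoc1 and B130034C11Rik hold no annotated gene start, and the RefSeq promoters used held no entry for Smoc1. For both loci the 300 bases at the centre of the 1 kb window with most ExE H3K4me3 are shown. For the other 3 loci a RefSeq promoter inside the peak is shown, 250 bases before to 50 after the start. For Sall1 it is the one at the annotated start, the most upstream of 3 Sall1 promoters in the peak. All are from GRCm38.p6, read 5′ to 3′ on the strand given, with CG dinucleotides, the sites that DNA methyltransferases act on, in capitals.
Smoc1 window, chr12:81019350-81019649, plus strand: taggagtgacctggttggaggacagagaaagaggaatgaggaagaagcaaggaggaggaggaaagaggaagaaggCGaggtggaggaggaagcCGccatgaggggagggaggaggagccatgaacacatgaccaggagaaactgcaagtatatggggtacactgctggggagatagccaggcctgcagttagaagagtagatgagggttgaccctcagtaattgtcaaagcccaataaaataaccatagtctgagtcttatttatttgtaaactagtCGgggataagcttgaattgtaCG
Sall1 promoter, chr8:89044113-89044412, minus strand: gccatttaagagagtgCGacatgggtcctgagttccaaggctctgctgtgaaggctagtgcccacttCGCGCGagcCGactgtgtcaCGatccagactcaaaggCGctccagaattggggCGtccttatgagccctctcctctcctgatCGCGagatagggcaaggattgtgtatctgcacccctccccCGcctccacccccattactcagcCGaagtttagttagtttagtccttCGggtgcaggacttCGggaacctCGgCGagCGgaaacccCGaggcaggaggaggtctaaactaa
Gm12569 promoter, chr11:51220321-51220620, plus strand: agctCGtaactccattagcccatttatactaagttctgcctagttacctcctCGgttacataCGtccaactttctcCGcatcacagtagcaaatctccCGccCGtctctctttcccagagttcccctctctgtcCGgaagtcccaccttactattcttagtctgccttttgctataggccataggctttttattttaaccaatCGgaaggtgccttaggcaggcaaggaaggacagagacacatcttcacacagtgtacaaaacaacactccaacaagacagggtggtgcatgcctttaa
Galnt6 promoter, chr15:100720428-100720727, minus strand: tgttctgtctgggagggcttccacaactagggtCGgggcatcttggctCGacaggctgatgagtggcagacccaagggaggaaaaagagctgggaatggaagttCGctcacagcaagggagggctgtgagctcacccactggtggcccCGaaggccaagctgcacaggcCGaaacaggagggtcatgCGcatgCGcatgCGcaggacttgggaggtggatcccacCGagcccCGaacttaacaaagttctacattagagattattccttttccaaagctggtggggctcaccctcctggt
B130034C11Rik window, chr16:87507350-87507649, plus strand: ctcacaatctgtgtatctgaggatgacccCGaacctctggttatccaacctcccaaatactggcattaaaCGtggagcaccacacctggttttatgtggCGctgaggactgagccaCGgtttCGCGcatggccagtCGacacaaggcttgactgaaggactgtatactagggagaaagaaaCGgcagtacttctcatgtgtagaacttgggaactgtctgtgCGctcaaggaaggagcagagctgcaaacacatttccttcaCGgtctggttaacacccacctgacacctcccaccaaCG

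These stretches held 4 CG dinucleotides at Smoc1, 18 at Sall1, 8 at Gm12569, 10 at Galnt6 and 11 at B130034C11Rik. The motif CG reads the same on both strands, 94.8% of 31396 autosomal RefSeq promoters of this length held at least 1, and the median was 7. As many CG as in the Sall1 promoter were found in 30.3% of those promoters, the other Sall1 promoters in the peak held 27 and 39 (as many as the latter in 4.59%), and as many as in the Smoc1 window in 69.1%. Of the Smoc1 window, 71.0% was repeat sequence in the soft-masked genome, against 0% of the Sall1 promoter shown, 7.33% and 17.3% of the other Sall1 promoters, 34.3% of the Gm12569 promoter, 7% of the Galnt6 promoter and 8.67% of the B130034C11Rik window. Over whole leading peaks the order differed, with 38.4% at B130034C11Rik, 30.3% at Smoc1, 21.0% at Gm12569, 18.2% at Galnt6 and 15.9% at Sall1. Over whole leading peaks, the observed-to-expected CG ratio was 0.467 at Sall1, 0.399 at B130034C11Rik, 0.286 at Galnt6, 0.282 at Gm12569 and 0.242 at Smoc1. The Sall1 value was at percentile 86.2 of 40468 autosomal ExE H3K4me3 peaks and the Smoc1 value at percentile 32.0.

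In ExE, the paternal share of allele-assigned H3K4me3 reads at the 5 leading peaks ran from just above one-to-one at Sall1 to almost all reads at Smoc1. At Smoc1 the B6/CAST libraries gave 80.5% and 79.6%, those of CAST/B6 97.3% and 98.8%, and those of matDKO/CAST 73.4% and 70.1%. All 6 libraries were paternal, and the crosses did not overlap. The 98.8% library held 171 paternal and 2 maternal reads. The Gm12569 peak gave 84.0% and 73.5% with B6 mothers (B6/CAST), 94.6% and 96.7% in CAST/B6, and 82.6% and 76.0% for matDKO/CAST, so that CAST/B6 was again the highest and matDKO/CAST overlapped B6/CAST.

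The Galnt6 peak had the highest paternal share of the 5 in B6/CAST, with 91.0% and 90.1%. It gave 76.0% and 87.5% in CAST/B6, with 74.6% and 96.5% in matDKO/CAST. Here the cross with a B6 father was the lower of the wild-type crosses, and its shares rested on 19 paternal and 6 maternal reads in library 1 and 14 and 2 in library 2. At B130034C11Rik the shares were 60.7% and 66.7% in B6/CAST, 75.6% and 75.7% in CAST/B6, with 78.1% and 69.0% in matDKO/CAST, with every library above an equal share.

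In the wild-type crosses Sall1 carried the smallest mean bias over the most reads. Its paternal shares were 60.4% and 56.1% in B6/CAST (598 paternal to 392 maternal and 379 to 296 reads), 63.9% and 54.5% in CAST/B6, with 57.5% and 71.8% in matDKO/CAST, and the 3 crosses overlapped. As means over the 2 libraries of a group (± SD), paternal shares at Sall1 were 58.3 ± 3.01% for B6/CAST, 59.2 ± 6.64% for CAST/B6 and 64.6 ± 10.1% for matDKO/CAST. Among the 44 ExE H3K4me3 peaks with a paternal imprinted call, Sall1 ranked 43 by its log2 ratio in B6/CAST and 44 in CAST/B6, and B130034C11Rik ranked 38 and 37. The others were not weak in both crosses, since Smoc1 ranked 20 and 5, Gm12569 21 and 10, and Galnt6 15 and 30.

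**Figure D1:**
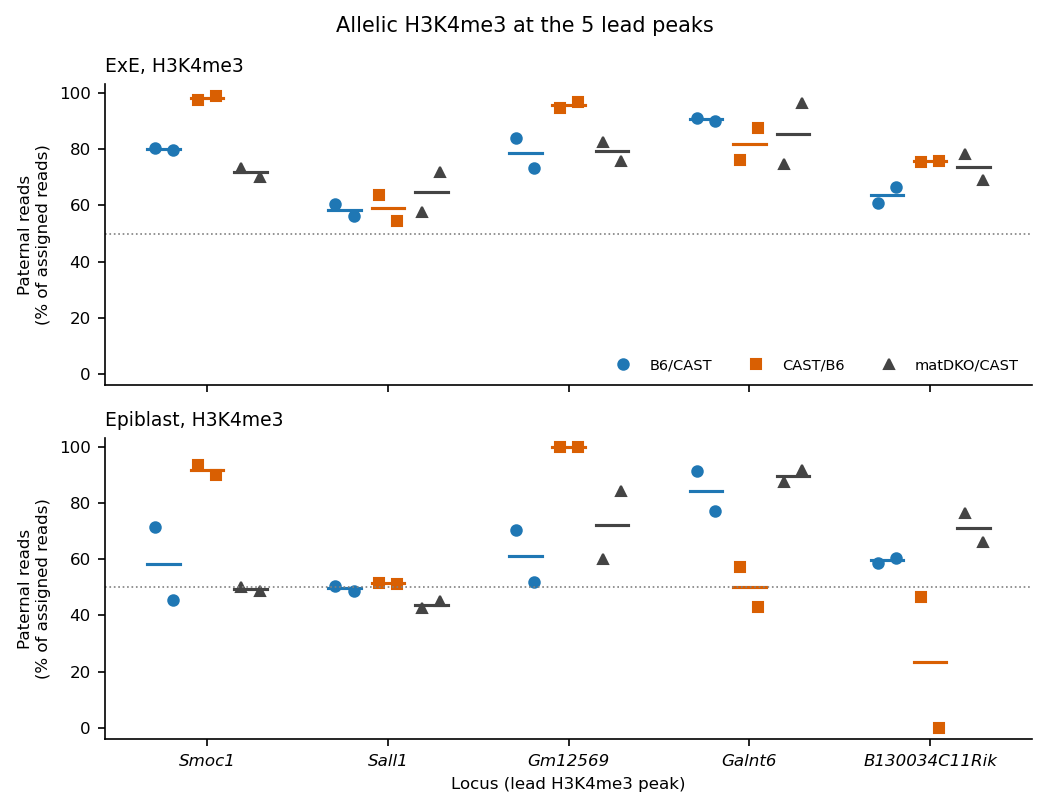
Paternal share of allele-assigned H3K4me3 reads (%) at the 5 leading peaks, with ExE in the upper row and epiblast in the lower row. Points are libraries (n = 2 per cross), horizontal bars are group means and the dotted line marks 50%; in ExE all points lie above it, while in epiblast the Sall1 points sit near it and the CAST/B6 points of Smoc1 and Gm12569 lie between 90.0 and 100%.

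A peak was called imprinted when the adjusted p of edgeR's quasi-likelihood test of paternal against maternal reads was below 0.05 in B6/CAST and in CAST/B6 with the same parent higher. In ExE H3K4me3 these calls chose the loci, so their counts were fixed by the choice and are only a description. They were 5 of 14 informative peaks, the leading peaks (0.19% of all 23211 tested peaks had a paternal call), and the same 5 in matDKO/CAST (0.978% of all tested peaks were paternal there). Nearest inside the threshold over the 3 crosses were B130034C11Rik, with log2 ratios of 0.80, 1.58 and 1.57, and Sall1, with 0.54, 0.47 and 0.98, given as values with no test. Nearest outside it, with the same parent higher in both wild-type crosses, was the peak over the Smoc1 start site, chr12:81025000-81029000, with log2 ratios of 0.48 and 1.11. The peak chr16:87490000-87503000 over the start sites of Cct8 and B130034C11Rik had opposite signs, with log2 ratios of -0.43 in B6/CAST and 0.23 in CAST/B6.

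The reference loci give the scale of these shares, and differences from them were not tested. Gab1, an adaptor of growth factor signalling, had mean shares of 93.0% for B6/CAST, 95.3% for CAST/B6 and 87.2% for matDKO/CAST, and in the same order Slc38a4, an amino acid transporter, had 95.4, 93.6 and 82.8%, and Sfmbt2, a Polycomb-group gene, had 83.1, 86.5 and 87.3%. Jade1, a chromatin reader, had 63.7, 76.9 and 66.1%, in the range of B130034C11Rik. The reference peak of Platr20 is the leading Gm12569 peak itself. Of 15459 other autosomal peaks with at least 20 assigned reads in each of the 6 ExE libraries, the one most like the Smoc1 peak was the Gm12569 peak, with a root mean square difference of 0.83 in the log2 paternal-to-maternal ratio over the 6 libraries. For B130034C11Rik the nearest was a peak at Platr4 on chromosome 3, at 0.38, and for Sall1 one at Nat2, at 0.15, which had no imprinted call. The Galnt6 peak had fewer reads than this filter asks in some libraries, and its nearest peak was at Gm13261, at 1.03.

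The epiblast had not been used to choose the loci. Each leading peak had a counterpart in the epiblast H3K4me3 table, and the shares there varied between the loci. At Sall1 the counterpart, chr8:89033500-89049000, ended short of the upstream part of the ExE peak and stayed near equality, with paternal shares of 50.5 and 48.7% in B6/CAST, 51.4 and 51.3% in CAST/B6, with 45.0 and 42.7% in matDKO/CAST. All 6 libraries lay between 42.7 and 51.4%, over 666 paternal and 652 maternal reads in the deepest. The log2 ratios were 0.03 ± 0.15 (SE; adjusted p = 0.982), 0.05 ± 0.15 (0.988) and -0.22 ± 0.17 (0.61) by edgeR's quasi-likelihood test. A separate epiblast peak over the upstream part, chr8:89051500-89055000, held too few reads to be tested, with 6 paternal to 4 maternal and 9 to 5 in B6/CAST, 1 to 2 and 1 to 1 in CAST/B6, and 9 to 4 and 2 to 1 for matDKO/CAST.

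In epiblast the Smoc1 counterpart, chr12:81017500-81021000, followed the cross. Paternal shares were 71.3 and 45.3% in B6/CAST, 93.5 and 90.0% in CAST/B6, while matDKO/CAST had 34 paternal to 36 maternal and 17 to 17 reads. CAST/B6 alone stood clear of the other crosses, on 43 paternal to 3 maternal reads and 9 to 1. Fitted log2 ratios were 3.53 ± 0.64 in CAST/B6 (adjusted p = 0.00297), 0.72 ± 0.43 in B6/CAST (0.664) and 0.05 ± 0.33 in matDKO/CAST (0.975). The difference between the wild-type crosses was itself past the threshold (strain term of a joint fit, adjusted p = 0.042), as for 6.09% of all 20328 peaks tested, and it was the 1 of the 11 epiblast members for which this held. Over the Smoc1 start site, at chr12:81025500-81029000, the epiblast log2 ratios were 0.20 (adjusted p = 0.921) and -0.02 (0.999).

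The Gm12569 counterpart was paternal in epiblast, with the fewest maternal reads in CAST/B6. The reads were 71 paternal to 30 maternal and 13 to 12 in B6/CAST, 20 to 0 and 7 to 0 in CAST/B6, with 37 to 7 and 12 to 8 in matDKO/CAST. No library had more maternal than paternal reads. With no maternal read among 27 in the CAST/B6 group, the paternal allele was at least 9-fold higher against a floor of 3 reads over the group, which covers counting error only. The adjusted p was 0.00898 in CAST/B6 and 0.00611 in matDKO/CAST (log2 ratio 1.73 ± 0.47) but 0.665 in B6/CAST (1.01 ± 0.61).

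Galnt6 was paternal in epiblast in the crosses with a CAST father. Shares were 91.2 and 77.1% for B6/CAST libraries and 91.7 and 87.5% for matDKO/CAST libraries, against 57.1 and 42.9% in CAST/B6, where only 7 reads per library could be assigned. By edgeR's test it was 2.65 ± 0.55 on the log2 scale in B6/CAST (adjusted p = 0.0375), 3.33 ± 0.54 in matDKO/CAST (1.84e-07) and -0.11 ± 1.10 in CAST/B6 (0.999). For B130034C11Rik the log2 ratios were 0.61 ± 0.43 (adjusted p = 0.763), -0.63 ± 0.98 (0.962) and 1.28 ± 0.44 (0.0508), on 7 paternal to 8 maternal and 0 to 2 reads in CAST/B6.

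Of the 11 informative epiblast H3K4me3 members, 0 were called imprinted by edgeR's quasi-likelihood test (0.0787% of all tested peaks had a paternal call). At an unadjusted p below 0.05 in both wild-type crosses the count was also 0, and with DESeq2 it was 0. With the library as a block, which holds here because the maternal and paternal reads of a library come from the same embryos, the count was 2, the counterparts of Smoc1 (B6/CAST log2 ratio 0.74, adjusted p = 0.0348) and Gm12569 (1.01, adjusted p = 0.0089). In matDKO/CAST 2 members were called, Gm12569 and Galnt6 (2.64% of all tested peaks had a paternal call there). The blocked count there was 3, with B130034C11Rik added (log2 ratio 1.24, adjusted p = 0.0188), and DESeq2 called 1. The median log2 ratio of the 11 members was 0.20 (B6/CAST), 0.05 (CAST/B6) and -0.14 (matDKO/CAST), beside 0.00 in each for all tested peaks.

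The total amount of H3K4me3, given as reads per kilobase and 1e6 library reads (RPKM) averaged over the 1 kb windows of a peak, separated the loci in a different way. In these bulk samples, fewer cells with a mark and less of it per cell cannot be told apart. The Smoc1 leading peak had 8.68 and 6.42 RPKM in B6/CAST ExE and 6.66 and 7.93 in CAST/B6 ExE, against 2.99, 1.69, 1.41 and 1.79 in the 4 wild-type epiblast libraries. The tissues did not overlap, and the mean was 3.77-fold higher in ExE (difference of 1.71 ± 0.17 on the log2(RPKM + 0.5) scale, limma, adjusted p = 1.63e-10). Over the Smoc1 start site the level was 6.99 ± 1.29 RPKM in ExE and 7.35 ± 1.61 in epiblast (SD, n = 4), a difference of -0.06 ± 0.17 (adjusted p = 0.795). All these peaks come from the ExE table, so they had been picked for H3K4me3 in ExE. Past the start site the interval held 7 weaker peaks that are in the ExE table and not in the epiblast table, with log2 differences from 0.37 at chr12:81188000-81189500 to 0.97 at chr12:81032000-81036500, given as a description with no test.

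Gm12569 showed a like tissue difference. Its peak had 8.10, 5.98, 3.28 and 5.07 RPKM in wild-type ExE and 3.24, 0.928, 0.714 and 1.17 in wild-type epiblast, with 1 epiblast library just under the lowest ExE library. The mean was 3.71-fold higher in ExE (log2 difference 1.69 ± 0.20, limma, adjusted p = 6.62e-09). B130034C11Rik had 1.78 ± 0.905 RPKM in ExE and 0.762 ± 0.573 in epiblast (SD, n = 4), and its libraries overlapped between tissues (0.89 ± 0.19, adjusted p = 0.000239). The peak over the shared start region of Cct8, a subunit of the CCT chaperonin, and B130034C11Rik had 6.90 and 6.50 RPKM (0.08 ± 0.16, adjusted p = 0.701).

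Sall1 went the other way. Its leading peak had 7.80, 6.71, 5.36 and 7.58 RPKM in wild-type ExE and 11.6, 9.50, 14.0 and 9.66 in wild-type epiblast. All epiblast libraries were above all ExE libraries (log2 difference -0.66 ± 0.17, limma, adjusted p = 0.00156). Within the peak, the 9 windows around the start site (chr8:89039001-89048000) averaged 16.3 RPKM in ExE and 28.0 in epiblast, while the 5 windows of the part upstream (chr8:89051001-89056000) averaged 2.45 and 0.546, 4.49-fold higher in ExE. The tissues did not overlap in either part. These parts were set after the windows had been seen, so no test is given for them.

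**Figure D2:**
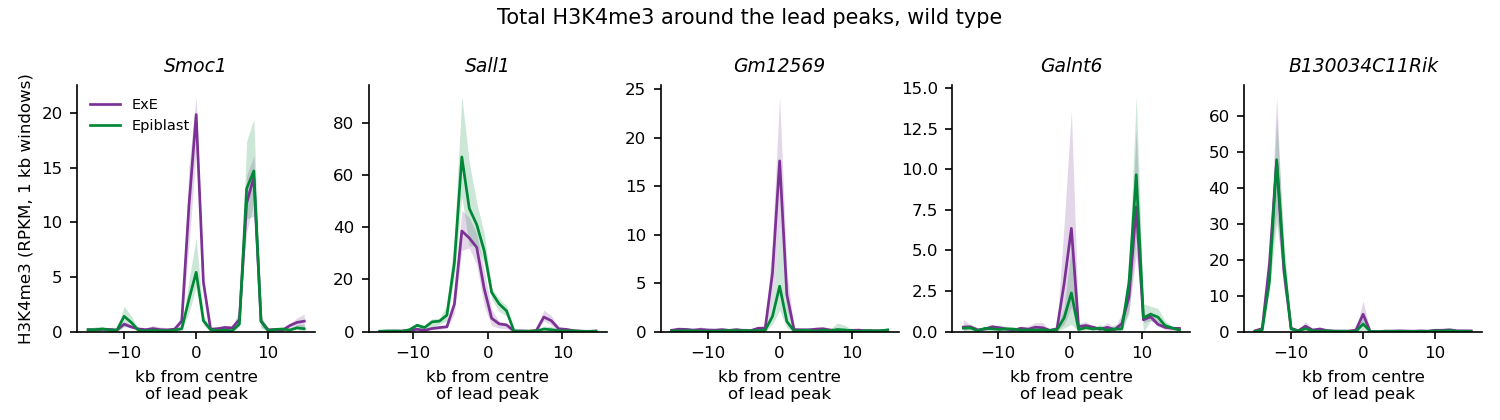
Total H3K4me3 (RPKM per 1 kb window) against the distance from the centre of each leading peak (kb) in the wild type. Lines are means of 4 libraries and bands run from the lowest to the highest library, with ExE in purple and epiblast in green; ExE stands above epiblast at the Smoc1 and Gm12569 peaks and below it around the Sall1 start site.

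The Galnt6 peak differed between the wild-type crosses. Total H3K4me3 was 6.79 and 4.39 RPKM in B6/CAST ExE, 0.771 and 0.898 in CAST/B6 ExE, and 4.83 and 5.93 in matDKO/CAST ExE. CAST/B6 lay far below both crosses with a CAST father, also in epiblast, where it had 0.304 and 0.672 RPKM against 2.31 and 1.21 for B6/CAST, with 3.57 and 2.41 for matDKO/CAST. Wild-type libraries of the 2 tissues overlapped, with a log2 difference of ExE from epiblast of 0.95 ± 0.19 (limma, adjusted p = 7.62e-05). In ExE the log2 difference of CAST/B6 from B6/CAST was -2.16 ± 0.26 (limma, adjusted p = 8.14e-06), a contrast added after the data were seen. Per 1e6 assigned reads, the paternal allele had 24.8 in B6/CAST, where it is CAST, and 3.71 in CAST/B6, where it is B6, and the maternal allele had 2.56 and 0.886. The matDKO/CAST level was higher than that of the wild type, with a difference of 1.05 ± 0.23 (adjusted p = 0.0118), and the same level set against B6/CAST alone differed by -0.03 ± 0.26. The peak over the annotated Galnt6 start site, chr15:100728000-100733000, had 2.39 ± 0.885 RPKM in ExE and 3.11 ± 1.34 in epiblast (SD, n = 4; log2 difference -0.29, adjusted p = 0.133).

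**Figure D3:**
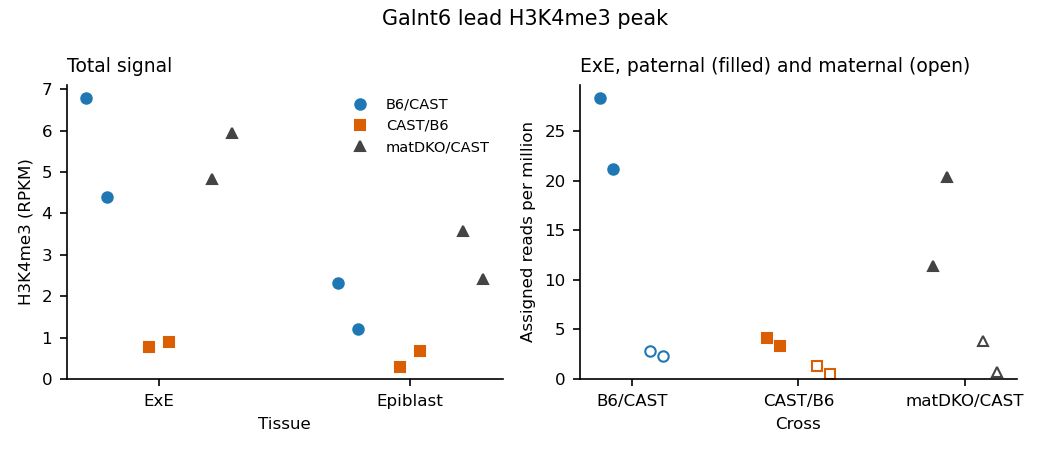
The Galnt6 leading peak by cross. The left panel gives total H3K4me3 (RPKM) per library in ExE and epiblast, and the right panel gives ExE reads per 1e6 assigned reads for the paternal (filled) and maternal (open) allele; the CAST/B6 libraries are at 0.771 and 0.898 RPKM in ExE, below all other ExE libraries.

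Among the 18 ExE H3K4me3 members, total H3K4me3 was higher in ExE than in epiblast at 8 (32.9% of all 40468 peaks) and lower at 2 (14.4%). Of the 8, 4 are Smoc1 peaks with no epiblast counterpart, which were members only through ExE, and the other 4 are the leading peaks of Smoc1, Gm12569, Galnt6 and B130034C11Rik, which have one. The lower members were the Sall1 leading peak and a peak at chr8:89003000-89008000 in the same interval (-0.76 ± 0.16, adjusted p = 0.000176). The members' median log2 difference was 0.46, beside 0.19 for all peaks, and these peaks had been called in ExE. Beside these differences, the summed H3K4me3 of the 8 visceral endoderm markers was 50.6 to 85.3 RPKM in wild-type ExE and 38.8 to 63.0 in wild-type epiblast, none of the markers was at 0 in the mean of either tissue, and the part of such cells in the ExE values was not tested. Between matDKO/CAST and the wild type 1 of 18 differed, the Galnt6 peak (0.329% of all peaks were higher in matDKO/CAST). CAST/B6 was lower than B6/CAST at 2 of 18 members (8.46% of all peaks), the leading peaks of Galnt6 and B130034C11Rik (-0.89 ± 0.27, adjusted p = 0.0373).

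H3K27me3 in ExE was higher on the maternal allele at 3 of 9 informative members, 1 each at Sall1, Smoc1 and Gm12569 (0.226% of all 18592 peaks had a maternal imprinted call). The Sall1 peak, chr8:89030500-89052000, overlaps the start site and the leading H3K4me3 peak. Its paternal to maternal reads were 12 to 119 and 20 to 56 in B6/CAST, 55 to 209 and 25 to 85 in CAST/B6, with 3 to 33 and 2 to 17 in matDKO/CAST. Maternal reads exceeded paternal reads in all 6 libraries, and the paternal share was 26.3% at most. The log2 ratios were -2.36 ± 0.26 for B6/CAST (adjusted p = 1.58e-10), -1.88 ± 0.19 for CAST/B6 (7.37e-15) and -2.98 ± 0.54 for matDKO/CAST (0.000117). Its difference between matDKO/CAST and B6/CAST was -0.66 ± 0.71 (edgeR interaction term, adjusted p = 0.932), so neither a loss nor a gain was measured within that error. Total H3K27me3 over this peak was 0.994 ± 0.256 RPKM in ExE and 0.341 ± 0.0835 in epiblast (SD, n = 4; log2 difference 0.82 ± 0.11). The span was called in ExE, and the epiblast peak inside it, chr8:89044500-89049500, is much shorter, so no test is given.

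At Smoc1 the imprinted H3K27me3 peak, chr12:81085500-81094000, lay inside the gene and not under the leading H3K4me3 peak. Its total H3K27me3 in ExE was 0.483 and 0.291 RPKM in B6/CAST and 0.834 and 0.861 in CAST/B6. The matDKO/CAST ExE mean was 0.473, beside 0.414 in wild-type epiblast. The reads were 12 paternal to 28 maternal and 5 to 17 in B6/CAST, 6 to 90 and 6 to 66 in CAST/B6, with 2 to 17 and 10 to 14 in matDKO/CAST. The maternal allele was higher in every library, most of all in CAST/B6. These are log2 ratios of -1.31 ± 0.40 (adjusted p = 0.0208), -3.69 ± 0.32 (9.04e-19) and, in matDKO/CAST, -1.07 ± 0.51 (0.34). Matched against B6/CAST, matDKO/CAST differed by 0.22 ± 0.67 (adjusted p = 0.987). The broad peak that holds the leading Smoc1 peak and the start site, chr12:80965000-81050500, had log2 ratios of -0.19 (adjusted p = 0.169), -0.34 ± 0.08 (0.00111) and -0.43 ± 0.14 (0.0796).

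The Gm12569 H3K27me3 peak, chr11:51220000-51262500, started within the leading H3K4me3 peak and ran past the end of the gene. Over the leading peak itself, wild-type ExE H3K27me3 averaged 0.521 RPKM, beside 0.549 in input. The authors' lists had an H3K27me3 peak there in CAST/B6 ExE and none in B6/CAST ExE. Over the whole H3K27me3 peak, paternal to maternal reads were 110 to 195 and 91 to 149 in B6/CAST. They were 182 to 252 and 104 to 171 in CAST/B6, with 52 to 121 and 62 to 92 in matDKO/CAST. All 6 libraries had more maternal reads, by a smaller factor than at Sall1. The log2 ratio was -0.70 ± 0.13 (adjusted p = 9.41e-05), -0.59 ± 0.13 (0.000209) and -0.62 ± 0.19 (0.07), and matDKO/CAST differed from B6/CAST by 0.06 ± 0.23 (0.99). Downstream of the Galnt6 leading peak, the peak chr15:100683500-100707000 was maternal in B6/CAST (-1.11 ± 0.17, adjusted p = 1.01e-06) and in matDKO/CAST (-1.07 ± 0.23, 0.0032), and missed the threshold in CAST/B6 (-0.36 ± 0.14, 0.0526). At B130034C11Rik the bias of the wild-type crosses followed strain. The peak chr16:87511000-87594500 had log2 ratios of 0.49 (adjusted p = 3.87e-05) in B6/CAST and -0.48 (4.46e-06) in CAST/B6, so the CAST allele was higher in both, while matDKO/CAST had 0.25 (0.445). At chr16:87500500-87508000, which overlaps the leading peak, the ratios were 0.74 (adjusted p = 0.0246), -0.58 (0.0424) and, for matDKO/CAST, -0.02 (0.991). The matDKO/CAST libraries thus showed no CAST excess past the threshold at either peak, and their difference from B6/CAST was not past it either (adjusted p = 0.797 and 0.664).

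In matDKO/CAST, 2 of the 9 members had more maternal H3K27me3 by edgeR's test, the Sall1 peak and the Galnt6 peak chr15:100683500-100707000 (1.29% of all peaks). With the library as a block there were 5, adding Smoc1 chr12:80965000-81050500 (log2 ratio -0.43, adjusted p = 0.0003), Gm12569 (-0.63, 0.0133) and Galnt6 chr15:100718000-100936000 (-0.29, 0.0006), and DESeq2 called 0. Fits with a library left out used 1 spread shared by the crosses, which gave 4 with all libraries. Their counts are therefore not set beside these. A difference of bias between matDKO/CAST and B6/CAST was called at 0 of 9 members by edgeR and by DESeq2 (0.742% of all peaks), with 2 at an unadjusted p below 0.05, and at 1 with the block, Galnt6 chr15:100718000-100936000 (-0.36 ± 0.08, adjusted p = 0.0007). The wild-type imprinted count of 3 was 4 with the block, which added Galnt6 chr15:100683500-100707000 (CAST/B6 log2 ratio -0.36, adjusted p = 0.0279), and 1 with DESeq2. Counts with a wild-type library left out come from the shared-spread fit too and are not set beside this count. The strain term was past the threshold at 5 of 9 members (23.3% of all peaks). The members' median log2 ratio was -0.19 for B6/CAST, -0.48 for CAST/B6 and -0.43 for matDKO/CAST, beside -0.01, 0.00 and 0.00 for all tested peaks.

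In epiblast, 5 H3K27me3 peaks overlapped the intervals and 4 were informative. Of these 0 were called imprinted by edgeR or DESeq2 (0.0448% of all tested peaks had a maternal call), and 1 had an unadjusted p below 0.05 in both wild-type crosses. It was the peak over the Smoc1 start site, chr12:81025500-81032500, with log2 ratios of -0.99 ± 0.46 (adjusted p = 0.486) in B6/CAST, -1.56 ± 0.30 (1.2e-05) in CAST/B6, with -1.36 ± 0.55 (0.264) in matDKO/CAST.

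**Figure D4:**
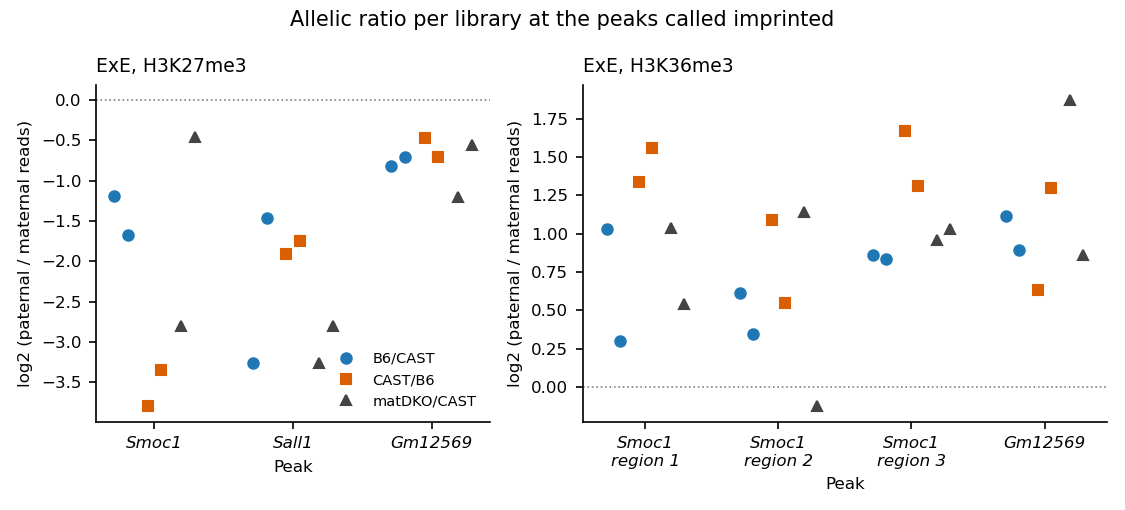
Log2 ratio of paternal to maternal reads per ExE library at the members with an imprinted call, for H3K27me3 (Smoc1, Sall1, Gm12569) and H3K36me3 (3 Smoc1 regions and Gm12569). Points are libraries (n = 2 per cross); all H3K27me3 points lie below 0, and the H3K36me3 points lie above 0 except for 1 matDKO/CAST point, at -0.13, of the Smoc1 region chr12:81101000-81146000.

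H3K36me3 in ExE was higher on the paternal allele at 4 of 9 informative members, 3 over Smoc1 and 1 over Gm12569 and Platr20 (0.213% of all 7980 peaks had a paternal imprinted call). With the library as a block the 3 Smoc1 calls were lost (adjusted p = 0.0797, 0.0609 and 0.0872 in B6/CAST) and 1 remained, that of Gm12569. The Smoc1 region chr12:81014000-81041000 spans the leading H3K4me3 peak and the start site. Its paternal to maternal reads were 76 to 37 and 42 to 34 in B6/CAST, 59 to 23 and 54 to 18 in CAST/B6, with 19 to 9 and 38 to 26 in matDKO/CAST. Paternal reads were the more numerous in all 6 libraries, most clearly in CAST/B6. The log2 ratio was 0.80 ± 0.22 (adjusted p = 0.012), 1.39 ± 0.25 (4.76e-06) and, in matDKO/CAST, 0.86 ± 0.35 (0.483). In the gene body, chr12:81101000-81146000 had ratios of 0.58 ± 0.16 (adjusted p = 0.0123), 0.79 ± 0.17 (0.000551) and 0.54 ± 0.28 (0.682). Its matDKO/CAST libraries were split, with 47 paternal to 21 maternal and 54 to 59 reads. The region chr12:81151500-81161000 had 0.94 ± 0.31 (0.0484), 1.45 ± 0.34 (0.00185) and 1.18 ± 0.44 (0.347).

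The Gm12569 and Platr20 region, chr11:51206000-51224000, gave 46 paternal to 21 maternal and 32 to 17 reads in B6/CAST, 39 to 25 and 45 to 18 in CAST/B6, with 27 to 7 and 35 to 19 in matDKO/CAST. All libraries were paternal and the crosses overlapped. The log2 ratio was 1.10 ± 0.29 (adjusted p = 0.0055), 0.90 ± 0.26 (0.0356) and, in matDKO/CAST, 1.43 ± 0.37 (0.0613). The Sall1 body had log2 ratios near 0, with 0.03 ± 0.35, -0.07 ± 0.33 and 0.22 ± 0.55 at chr8:89026000-89042500. Within the leading Sall1 peak, chr8:89046000-89053000 had 0.75 ± 0.46 (adjusted p = 0.441), 1.05 ± 0.49 (0.349) and 0.65 ± 0.69 (0.931), with no call. Galnt6 had no H3K36me3 peak in its interval. The long peak over Usp16, a histone H2A deubiquitinase, and Cct8 had log2 ratios of -0.16 (adjusted p = 0.224) and 0.17 (0.297), and its strain term, alone among the 9 members, passed the threshold (8.22% of all peaks).

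**Figure D5:**
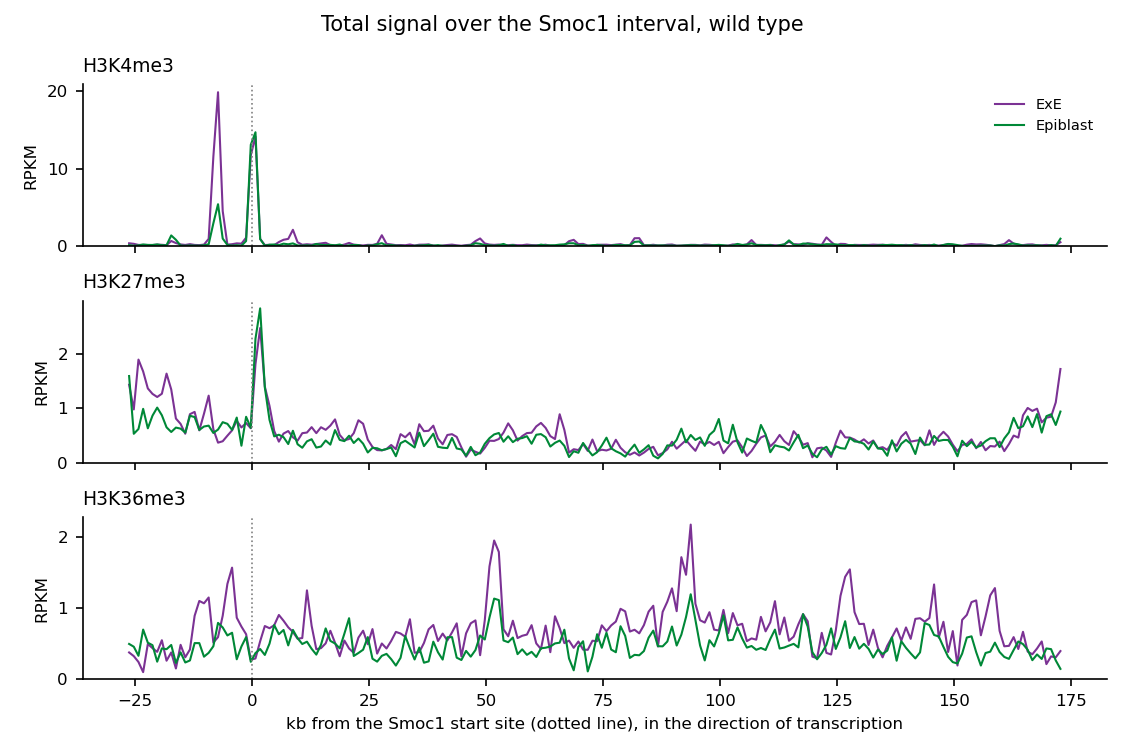
Wild-type mean levels (RPKM per 1 kb window, n = 4 libraries per tissue) of H3K4me3, H3K27me3 and H3K36me3 across the Smoc1 interval, against the distance from the annotated Smoc1 start (kb). ExE is in purple and epiblast in green; the H3K4me3 peak upstream of the start averages 7.42 RPKM in ExE and 1.97 in epiblast, while the peak at the start averages 6.99 and 7.35.

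With the library as a block, the imprinted H3K36me3 count was 1, Gm12569 (adjusted p = 0.0349 in B6/CAST and 0.0285 in CAST/B6). DESeq2 called 0, with 3 at an unadjusted p below 0.05 in both crosses. Counts with a library left out come from a fit with 1 spread shared by the crosses, which gave 2 with all libraries. They are not set beside these. In matDKO/CAST 0 of the 9 members were called by edgeR or DESeq2 (0.276% of all peaks were paternal there), 3 had an unadjusted p below 0.05, and the block called 1, Gm12569 (log2 ratio 1.40, adjusted p = 0.0039). With the shared spread and all libraries the count was 1. No difference between matDKO/CAST and B6/CAST was called, with 0 by edgeR, 0 by DESeq2 and 0 at an unadjusted p below 0.05 (0.363% of all peaks). The differences at the 4 imprinted regions lay between -0.08 ± 0.32 and 0.30 ± 0.47. The 2 Smoc1 regions without a call had -0.59 ± 0.43 at chr12:81166000-81186500 and -0.48 ± 0.64 at chr12:81076000-81083000. Their matDKO/CAST log2 ratios were -0.0002 and 0.10, beside 0.58 and 0.56 in B6/CAST. The median log2 ratio of the 9 members was 0.58 for B6/CAST, 1.05 for CAST/B6 and 0.54 for matDKO/CAST, beside 0.00 for all tested peaks in each. In epiblast 0 of 4 informative members were called by edgeR or DESeq2, and 0 at an unadjusted p below 0.05 (0.0361% of all tested peaks had a paternal call).

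Total H3K27me3 was higher in ExE than in epiblast at 7 of 10 members (47.4% of all 22515 peaks) and total H3K36me3 at 8 of 10 (43.3% of all 12871 peaks). The counts were 2 and 2 at a mean of at least 1 RPKM, and 3 for H3K27me3 with edgeR on recovered reads. The median log2 differences were 0.34 and 0.43, beside 0.22 for all peaks of either mark, and the peaks of both marks had been called in ExE, some of them with no epiblast counterpart in the intervals, so the counts are a description. Over the Smoc1 region chr12:81151500-81161000, H3K36me3 was 0.893 ± 0.121 RPKM in ExE and 0.491 ± 0.0644 in epiblast (SD, n = 4; log2 difference 0.49), a region in the ExE table and not in the epiblast table, so no test is given. The Gm12569 H3K27me3 peak, in contrast, had 0.893 ± 0.108 and 0.804 ± 0.138 RPKM (log2 difference 0.10). The summed H3K36me3 of the visceral endoderm markers was 7.98 to 12.3 RPKM in wild-type ExE and 3.78 to 5.05 in epiblast, and its part in these differences was not tested. Between matDKO/CAST and wild-type ExE, 0 of 10 members differed in H3K27me3 (limma; 0 at an unadjusted p below 0.05 and 0 by edgeR on recovered reads; 0.466% of all peaks) and 0 of 10 in H3K36me3 (2 at an unadjusted p below 0.05 and 0 by edgeR; 0.0233% of all peaks).

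Of the 14 annotated genes in the intervals, 11 passed the filter of a mean of 0.5 RPKM for H3K4me3 around the start site. It was higher in ExE at Gm12569 and Platr20 (7.38% of all 20151 genes), which share the same 3 windows, with 9.15 ± 3.32 RPKM in ExE and 2.44 ± 1.96 in epiblast (SD, n = 4; log2 difference 1.84 ± 0.18, limma, adjusted p = 2.06e-21). It was lower at Sall1 (-0.70 ± 0.19, adjusted p = 0.00182) and at Slc8a3, a sodium-calcium exchanger (-0.47 ± 0.18, 0.045), against 16.5% of all genes. For H3K36me3 over gene bodies 7 passed the filter and 4 were higher in ExE (39.2% of all 17774 genes), namely Smoc1 (0.32 ± 0.06, adjusted p = 0.00564), Platr20 (0.45 ± 0.08, 0.00425), Usp16 (0.54 ± 0.09, 0.00344) and Cct8 (0.48 ± 0.11, 0.0106). None was lower (3.02% of all genes). Sall1, with 1.14 ± 0.116 RPKM in ExE and 1.31 ± 0.336 in epiblast (SD, n = 4), did not pass the test (-0.13 ± 0.08, adjusted p = 0.239).

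In the Sall family of zinc finger factors, H3K4me3 at the start site was lower in ExE at 3 of 4 genes and higher at 0 (16.5% of all genes were lower and 7.38% higher), and the fall was greatest at Sall2 (3.21 ± 1.28 RPKM against 21.3 ± 2.18, SD, n = 4; log2 difference -2.61 ± 0.18, adjusted p = 1.81e-41). Sall4, a pluripotency factor, had 32.9 and 35.0 RPKM (-0.06 ± 0.19, adjusted p = 0.934). The SPARC-related proteins, the matrix family that includes Smoc1, had 3 of 7 lower and 0 higher, with Smoc2, its closest relative, at -1.17 ± 0.18 (adjusted p = 4.36e-09). Of the Galnt enzymes 5 of 17 were lower and 0 higher, Galnt13 among them (-1.19 ± 0.18, adjusted p = 2.55e-09), and Galnt6 itself had -0.29 ± 0.18 (0.32). The family medians were -0.60, -0.32 and -0.28, beside -0.07 for all genes. H3K36me3 was lower in ExE at 2 of 4 Sall genes, Sall2 and Sall3 (3.02% of all genes), higher at 2 of 3 SPARC-related genes, Smoc1 and Sparc, and higher at 2 of 7 Galnt genes, Galnt1 and Galnt7 (39.2% of all genes). The family medians for H3K36me3 were -0.28, 0.32 and 0.11, beside 0.28 for all genes.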

How the data were processed

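The authors trimmed reads with Trim Galore (0.4.4 in the submitters' processing notes), aligned them with Bowtie2 (2.3.2) to GRCm38 with B6 and CAST variants masked, split them by allele with SNPsplit, and deposited the read counts per peak and parental allele as raw counts. The RPKM values, deposited by the authors for 1 kb autosomal windows, use all aligned reads. Low RPKM values were whole multiples of 1 read in 100% of cases (tolerance 0.1 read), so libraries of H3K4me3 held 4.01 to 17.9 M (1e6) reads, those of H3K27me3 3.68 to 22.9 M and those of H3K36me3 2.09 to 12.6 M. The authors' chromstaR peak lists, called per wild-type cross and tissue from both replicates, have a score column of 0 throughout, and their coordinates were used for overlaps alone. The start and end columns of the allelic tables were used as the peak span, since counts matched the signal over that span rather than over the shorter span in the names of some peaks.

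Allelic counts of each cross were tested with edgeR 4.0.16 (quasi-likelihood, TMM, parent as the term) over all autosomal peaks with at least 20 reads in 1 allele column of a wild-type library. Total signal was tested with limma 3.58.1 on log2(RPKM + 0.5), and p-values were adjusted by Benjamini-Hochberg over each whole table. Alternatives were DESeq2 1.42.0, other filters, scalings, pseudocounts, input subtraction, replicates left out, and a joint fit of both wild-type crosses with a strain term. The strain term, the contrast of CAST/B6 with B6/CAST and the comparison with B6/CAST alone were added after the data were seen. Both alleles of a library were read in the same embryos, so the fit with the library as a block is paired by design. Across tissues, same-numbered libraries deviated together only weakly (correlations from -0.04 to 0.30), so these numbers were not taken as pairs.

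Members and gene lists were chosen with earlier results of these data known. Named were the 5 loci, other genes with an exon or start site in an interval, the leading peaks, peaks over start sites of interval genes, the peak of each interval, mark and tissue with most assigned reads, and the Sall, SPARC-related and Galnt families. A leading peak was the imprinted ExE H3K4me3 peak of an interval with most assigned reads. Interval peaks outside this rule were named where a call rested on them. Intervals and floors cover counting error only, and allelic reads are few at several members. Scripts were tested on simulated counts with known ratios. Genes are GENCODE, sequences and their start sites RefSeq (GRCm38.p6). Columns of the input libraries were used for subtraction and for the input level given at Gm12569. Of all columns, 0 belonged to other series, and matDKO/CAST peaks were not called separately.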

Additional observations from a re-analysis of the deposited data

Results flagged for a closer look

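At 7 members the parental log2 ratio differed between B6/CAST and CAST/B6 by the strain term of the joint fit (edgeR, adjusted p below 0.05), a test added after the data were seen. They were 1 of 11 informative members for epiblast H3K4me3 (6.09% of all tested peaks passed this test), 5 of 9 for ExE H3K27me3 (23.3%) and 1 of 9 for ExE H3K36me3 (8.22%). ExE H3K4me3 was left out because its values chose the loci. Values are B6/CAST minus CAST/B6. For H3K4me3 in epiblast it was -2.81 at Smoc1 chr12:81017500-81021000, where the paternal excess was in CAST/B6. For H3K27me3 in ExE it was 2.38 at Smoc1 chr12:81085500-81094000, where the maternal excess was larger in CAST/B6, and -0.75 at Smoc1 chr12:81190500-81352500. At Galnt6 chr15:100683500-100707000 it was -0.75, with the larger maternal excess in B6/CAST. At B130034C11Rik the H3K27me3 values were 1.31 at chr16:87500500-87508000 and 0.97 at chr16:87511000-87594500, and the H3K36me3 value was -0.33 at chr16:87375500-87501000. In each of those 3 B130034C11Rik peaks the ratio had opposite signs in the wild-type crosses.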

How the results depend on the processing

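Counts of members past the threshold are given as the value reported, then under the alternatives that moved them by over 1.5 times, and the causes were not tested. The calls of the leading peaks chose the loci, so their counts are a description. The 5 leading peaks called imprinted became 2 with DESeq2, 3 with 1 spread shared by the crosses and 2 at an adjusted p of 0.01, and the 5 called in matDKO/CAST became 3 with DESeq2 and 2 at 0.01. Imprinted calls for epiblast H3K4me3 went from 0 to 2 with the library as a block and 2 in the joint fit. For ExE H3K27me3 they went from 3 to 1 with DESeq2, 5 scaled by column totals and 7 in the joint fit, which does not ask for the same parent in each cross and of which 2 were paternal (Smoc1 chr12:81190500-81352500, 0.29, and Galnt6 chr15:100718000-100936000, 0.16), and for epiblast H3K27me3 from 0 to 1 in the joint fit. For ExE H3K36me3 they went from 4 to 0 with DESeq2, 1 with the library block, 2 with a shared spread and 0 at 0.01. The matDKO/CAST calls went from 2 to 0 (DESeq2), 5 (library block) and 4 (shared spread) for H3K27me3, and from 0 to 1 for H3K36me3 with no filter, with 20 reads in each cross, with the library block and with a shared spread. The difference of H3K27me3 bias went from 0 to 1 with the library block. Differences of total signal between tissues went from 10 to 6 for H3K4me3, from 7 to 2 for H3K27me3 and from 8 to 2 for H3K36me3 at a mean of at least 1 RPKM, where fewer peaks were tested, and H3K27me3 gave 3 with edgeR on recovered reads. The 1 matDKO/CAST difference in total H3K4me3 became 0 with input subtracted and 0 against B6/CAST alone, where the Galnt6 value turned from 1.05 to -0.028 (log2), and H3K27me3 went from 0 to 1 with input subtracted. With replicate numbers as a block, which the labels do not show to pair tissues, total calls were 8, 8 and 9 for the 3 marks.

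Leaving out 1 replicate at a time gave 2 to 5 leading peaks imprinted (2 without B6/CAST 1 or 2 or CAST/B6 1 or 2) and 4 to 5 called in matDKO/CAST, 1 to 4 imprinted for ExE H3K27me3, 0 to 4 for ExE H3K36me3, 0 to 4 matDKO/CAST calls for H3K27me3 and 0 to 2 for H3K36me3. Epiblast counts stayed at 0 and the differences of bias at 0. Total calls ran from 8 to 12, 5 to 9 and 7 to 9 for the 3 marks, from 0 to 1 for H3K4me3 in matDKO/CAST (0 without B6/CAST ExE 2 or matDKO/CAST ExE 3), and from 6 to 8 genes. In the allelic fits a lone remaining library was taken to vary like the other crosses, through 1 shared spread. With all libraries that fit gave 3 leading peaks imprinted and 2 imprinted for ExE H3K36me3. It gave 4 matDKO/CAST calls for H3K27me3 and 1 for H3K36me3. The allelic ranges are therefore not changes from the reported counts alone. Of the values of single peaks and genes under these alternatives, 1000 kept their side of the threshold, 71 became weaker, 20 stronger, 3 moved and 1 reversed. Several epiblast members had under 20 assigned reads in a library.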
